A study of Homo sapiens and Mus musculus with 30 samples.

Results

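The 8 ribose-methylated nucleotides 28S-Am389, 28S-Am391, 28S-Gm1303, 28S-Cm1327, 28S-Gm1509, 28S-Am1511, 28S-Gm1612 and 28S-Cm1868 lie towards the 5′ end of 28S ribosomal RNA (rRNA), the RNA of the large ribosomal subunit, and were followed across mouse brain tissue and human and mouse stem cells. In these names the first letter is the base, m stands for the 2′-O-methyl group and the digits are the number in published snoRNA target tables. The sites were defined by number and base, with earlier results of these data known, and make up 8 of 106 catalogue sites placed on the rRNAs (63 of 28S rRNA, 41 of 18S and 2 of 5.8S). All 8 passed the filter on low values in both species.

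RiboMeth-seq had been run on 30 samples, 16 human and 14 mouse, with 93 libraries in all. Mouse material was WT throughout. It covered 7 stages of cortex (5 embryonic ones, E11, E12.5, E14, E15.5 and E17, then P0 and adult), 3 further regions at P0 and in the adult (hippocampus, cerebellum and olfactory bulb) and embryonic stem cells of the line TCF2.2. The human samples were endoderm and mesoderm made from 3 lines by directed differentiation. H9 cells after neural induction (early neural precursors), neural differentiation (late neural precursors) and neural maturation (mature neurons) made up 3 more. H9 cells with SNORD52 knocked out by CRISPR-Cas9 (KO1 and KO2) and with SNORD52 overexpressed from a constitutive transgene (OE1 and OE2) were followed by the undifferentiated WT lines, namely H9 and HUES4, both embryonic, and KOLF2, which is an induced pluripotent line. The 4 edited samples derive from 1 line, and all brain tissue was sampled as whole regions. The sources used here give no strain, sex, adult age or number of animals per sample. Only rRNA was measured, so the cell types could not be checked against marker genes.

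A 2′-O-methyl group is placed on rRNA by a complex of fibrillarin, the methyltransferase, with a box C/D small nucleolar RNA (snoRNA) that base-pairs with the target and so selects the nucleotide. Most sites are constitutive and nearly fully modified, while some are modified on a fraction of the ribosomes. In RiboMeth-seq, RNA is broken by alkali, which cannot cleave on the 3′ side of a methylated ribose, and read ends are counted at each nucleotide. The score used below is 1 minus the read ends at a site over the weighted mean of its neighbours, so that 0 means no protection and 1 full protection. It is a measure of protection, not an absolute stoichiometry.

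The human sequences around the sites are shown because they place the 2 close pairs, in which 1 nucleotide lies between the modified ones, and because neighbours enter each score. Capitals mark the methylated nucleotides, and each run extends 15 nucleotides to either side of them.
Am389 and Am391: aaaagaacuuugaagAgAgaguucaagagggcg
Gm1303: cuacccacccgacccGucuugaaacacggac
Cm1327: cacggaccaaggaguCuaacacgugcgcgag
Gm1509 and Am1511: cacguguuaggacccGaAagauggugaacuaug
Gm1612: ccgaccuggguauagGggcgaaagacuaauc
Cm1868: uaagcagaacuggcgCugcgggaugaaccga
Position 1 is the 5′-terminal nucleotide of the 28S rRNA as the deposited files spell it out, with 5069 nucleotides in human and 4731 in mouse. The runs cover human positions 383 to 415, 1301 to 1331, 1325 to 1355, 1506 to 1538, 1609 to 1639 and 1865 to 1895 in the order shown. The mouse runs start at 383, 1116, 1140, 1321, 1424 and 1669. Mouse rRNA was identical over 4 of the 6 runs and differed at 1 nucleotide in the Cm1327 run, 5 nucleotides 3′ of the site, and at 2 nucleotides in the run of Gm1509 and Am1511, the first of them 15 nucleotides 5′ of Gm1509. In published target tables, SNORD26 guides Am389, SNORD81 guides Am391, SNORD21 guides Gm1303, SNORD104 guides Cm1327, SNORD80 guides Gm1612 and SNORD48 guides Cm1868. Am1511 is assigned to SNORD32A, SNORD32B and SNORD51, and no guide is named here for Gm1509. SNORD48 lies in the same host gene as SNORD52, the snoRNA that was edited in H9 cells.

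Libraries stood apart in 2 ways that touch these sites. First, the general level differed: the median score over the tested sites averaged 0.852 in E11 cortex, against 0.965 to 0.983 in the other cortex samples, and 0.884 in adult cerebellum and 0.905 in P0 hippocampus. In human samples it was 0.895 to 0.911 in endoderm and mesoderm, 0.938 and 0.943 in KO, 0.903 and 0.908 in OE, and 0.936 to 0.952 in the unedited lines. Second, each library carried 1 of 6 index sequences, numbered 1 to 6 here, and libraries with the same index deviated together. Cortex from E12.5 to P0, the late and mature neural samples and undifferentiated HUES4 and KOLF2 had indexes 1 to 3, all other samples had indexes 4 to 6, and undifferentiated H9 had libraries of both sets. Total rRNA read ends per library were 1997206 to 40895844 in human (median 19269691) and 1536440 to 41455445 in mouse (median 17379500). Counting error alone was at most 0.0114 (median standard error of a library's score at a site, over human or mouse samples).

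The site most tied to the index was Am1511, the 3′ member of the second pair. It averaged 0.494 in the 21 libraries with index 6 (SD 0.201, range 0 to 0.809) and 0.93 in the other 72 libraries (SD 0.0456, range 0.762 to 0.990). The library with index 6 was the lowest of its sample in 21 of 21 samples. Within samples, index 6 minus the other libraries came to -0.363 ± 0.18 in human (SD, n = 12 samples) and -0.479 ± 0.162 in mouse (n = 9), the most negative shift of all 104 human and all 105 mouse sites tested. The values differed between the 2 kinds of read end. From 5′ ends alone Am1511 averaged 0.967 with index 6 and 0.979 with the others, and from 3′ ends alone 0.308 with index 6 and 0.878 with the others. Read ends were also set against the mean of a window around Gm1509, from distance -10 to 12 in nucleotides, with both sites included. This window mean differs from the weighted neighbours of the score. The 3′ ends at Am1511 came to 0.874 of the window mean in human libraries with index 6, against 0.155 with the other indexes. In mouse they came to 1.08 against 0.125. Those at Gm1509 came to 0.135 with index 6, against 0.0712 with the other indexes, in human and to 0.109 against 0.0502 in mouse.

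**Figure D1:**
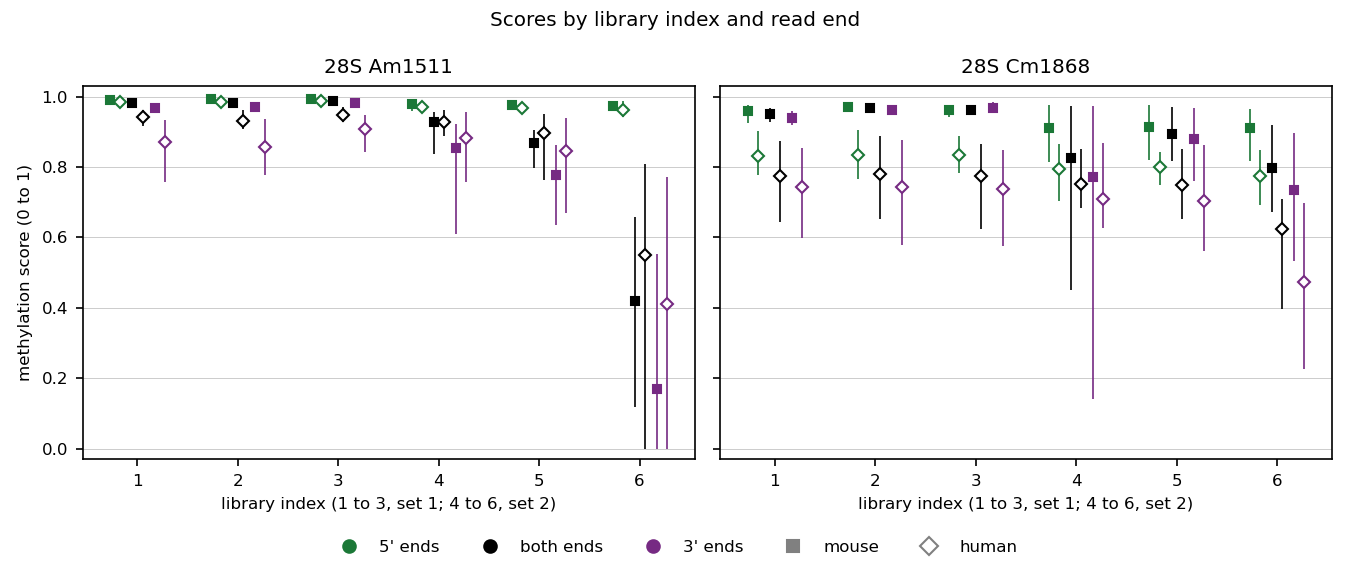
Score of Am1511 (left) and Cm1868 (right) by library index, from 5′ ends, both ends and 3′ ends, in mouse (squares) and human (diamonds). Points are means and lines run from the lowest to the highest library; with index 6, Am1511 averaged 0.412 in human and 0.17 in mouse from 3′ ends, while 5′ ends gave 0.963 and 0.972.

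**Figure D2:**
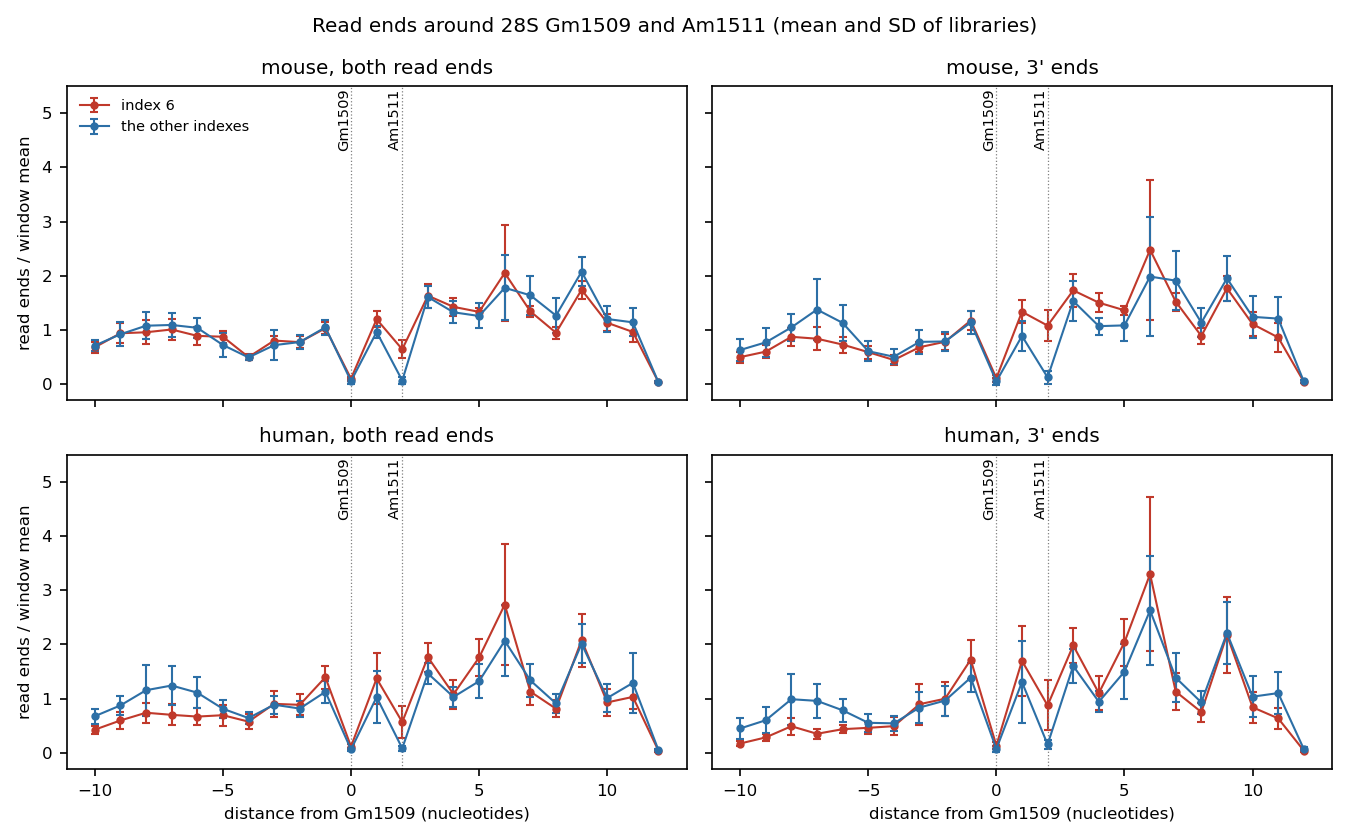
Read ends around Gm1509 (distance 0) and Am1511 (distance 2) as multiples of the mean over the window shown, by distance in nucleotides, for libraries with index 6 and all others (mean and SD). Both sites lay low in libraries of the other indexes, and with index 6 the 3′ ends at distance 2 averaged 0.874 in human and 1.08 in mouse.

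Cm1868 shared the tie to the index at a smaller size. Its index 6 library was the lowest of the sample in 20 of 21 samples, with shifts of -0.126 ± 0.064 in human (SD, n = 12) and -0.0631 ± 0.043 in mouse (SD, n = 9), the fifth and the sixth most negative of all tested sites. Among the other members the index 6 shift lay between -0.0265 and 0.0253. Their index 6 library was the lowest of its sample in 16 of 21 samples at Gm1509, 13 at Cm1327, 5 at Am389, 4 at Gm1303, 4 at Gm1612 and 2 at Am391. The part of the index is given below for many results, but not for all. It comes from leaving out index 6, from a block on the index, or from H9 libraries of the same index set. Leaving out index 6 was chosen after the scores of Am1511 were seen.

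Over samples, with both read ends and all indexes, Am389 and Am391 had the highest scores of the 8 in both species. The place of Am1511 in the order below depends on index 6 and on the read ends: without index 6 it averaged 0.922 in human and 0.929 in mouse, the fourth and the fifth highest, and from 5′ ends alone 0.972 and 0.982, above all other members in both species. Am389 averaged 0.954 in human and 0.954 in mouse samples, and Am391 0.942 and 0.952. Gm1509 followed with 0.929 in human and 0.934 in mouse, Gm1612 with 0.911 and 0.925, and Cm1327 with 0.898 and 0.934. Am1511 averaged 0.834 and 0.827, Cm1868 0.731 and 0.882, and Gm1303 0.669 and 0.894. Many neighbours in this order did not differ beyond their spread: in mouse, Gm1509 exceeded Cm1327 in 7 of 14 samples, with a mean difference of 4.72e-05 and an SD of 0.0584. In human, Am389 exceeded Am391 in 15 of 16 samples by 0.0123 ± 0.0101 (SD), Am1511 exceeded Cm1868 in 13 of 16 by 0.103 ± 0.0811, and Cm1868 exceeded Gm1303 in 13 of 16 by 0.0624 ± 0.0725. From 5′ ends alone the first pair turned, with Am391 above Am389 at 0.958 against 0.953 in human and 0.975 against 0.966 in mouse. Gm1612 then averaged 0.89 in human and 0.905 in mouse, where it was the lowest member. With all indexes the spread between samples was widest for Am1511 (SD 0.102 in human and 0.133 in mouse), but without index 6 its SD was 0.0319 in human and 0.0466 in mouse, and Gm1303 in human (0.0975) and Cm1868 in mouse (0.0971) were widest. With all indexes and both read ends the spread was narrowest for the first pair (SD 0.0196 and 0.0181 in human, 0.0402 and 0.0407 in mouse). From 5′ ends alone it was narrowest for Am1511 (0.0115 in human and 0.00966 in mouse), and without index 6 for Cm1327 in human (0.017). Gm1303 and Cm1868, the least methylated of the 8 in human, had human SDs of 0.0861 and 0.0763.

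Mouse cortex was sampled at 7 stages to ask how methylation changes as the cortex develops. Gm1303 climbed at every stage, averaging 0.746, 0.813, 0.875, 0.902, 0.92, 0.945 and 0.961 over the 7 stages taken in order. Its libraries read 0.776, 0.739 and 0.725 at E11, 0.782, 0.809 and 0.847 at E12.5, 0.872, 0.848 and 0.906 at E14, and 0.904, 0.901 and 0.9 at E15.5. They read 0.943, 0.938 and 0.877 at E17, 0.951, 0.96 and 0.924 at P0, and 0.958, 0.958 and 0.968 in the adult. The 3 E11 libraries lay below all 18 later ones and neighbouring stages overlapped from E14 to the adult. The slope was 0.034 ± 0.00393 score units per stage (SE, limma over 21 libraries, adjusted p = 1.86e-07). Each stage is 1 sample, so this slope and those below rest on libraries as units and not on replicate samples of a stage.

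Cm1327, which lies 24 nucleotides 3′ of Gm1303, averaged 0.842, 0.925, 0.937, 0.947, 0.952, 0.956 and 0.982 over the same 7 stages. E11 libraries read 0.812, 0.903 and 0.812 and adult libraries 0.984, 0.987 and 0.976, so that E11 lay below and adult above all libraries of the stages between. The slope was 0.0178 ± 0.0035 (SE, limma, adjusted p = 0.000214). Cm1868 averaged 0.759, 0.953, 0.946, 0.961, 0.965, 0.972 and 0.942, with libraries of 0.694, 0.825 and 0.76 at E11 and 0.963, 0.96 and 0.903 in the adult. It was low at E11 and high at all later stages, without a further ordered rise into the adult, and its slope was 0.0217 ± 0.00658 (SE, limma, adjusted p = 0.00852).

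Slopes passed the test at 6 of the 8 sites, all upward, while 66.7% of all 105 sites tested were called (70 sites) and 64.8% were called upward. The other 3 called members had small slopes: 0.0078 ± 0.00308 at Am389 and 0.00902 ± 0.00358 at Am391 (SE, limma, adjusted p = 0.034 each) and 0.00945 ± 0.00402 at Gm1509 (adjusted p = 0.0437). Gm1612 had a slope of 0.0112 ± 0.00499 (adjusted p = 0.0508) and Am1511 of 0.00481 ± 0.017 (adjusted p = 0.78). The median slope was 0.0103 over the 8 members and 0.0121 over all sites tested. Of the other lists, 36 of 55 other 28S sites, 24 of 40 18S sites and 2 of 2 5.8S sites were called upward, and 1 other 28S site and 1 18S site downward.

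The E11 and adult libraries had other indexes than the 5 stages between them, and E11 had the lowest general level, so the slopes were set against fits that take these apart. From E12.5 to P0, made with 1 library number and 1 index set, Gm1303 still climbed by 0.0309 per stage (limma, adjusted p = 2.44e-05), and Cm1327 by 0.0077 (0.00316), Gm1509 by 0.00312 (0.0423) and Cm1868 by 0.00591 (0.0262). In that fit 44.8% of sites were called. Without E11, Gm1303 (0.0277) and Cm1327 (0.01) kept a called rise, beside 46.7% of all sites called, and Cm1868 had a slope of 0.000859 (adjusted p = 0.788), while Am389, Am391 and Gm1612 were called downward, at -0.00282, -0.00295 and -0.00593 per stage. Adult minus E11 alone, which share an index set, was 0.214 at Gm1303, 0.182 at Cm1868, 0.14 at Cm1327, 0.103 at Gm1612, 0.0824 at Am391, 0.0778 at Gm1509 and 0.0745 at Am389, and all 7 were called (87.6% of all sites). After division by each library's upper quartile, Gm1303 (0.16), Cm1868 (0.127), Cm1327 (0.077) and Gm1612 (0.0386) were still called (54.3% of all sites). With the index as a block all 8 slopes were called, against 95.2% of all sites.

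Single libraries decided some of these calls. Without any 1 of the E11 libraries the slopes of Am389, Am391 and Gm1509 were no longer called (adjusted p = 0.106 to 0.174). Gm1509 also lost its call without any 1 library of E17 or P0 (adjusted p = 0.0532 to 0.0622), and Gm1612 gained one without any 1 library of E12.5, E14 or the adult (adjusted p = 0.0257 to 0.0466). The calls at Gm1303, Cm1327 and Cm1868 held in each of the 21 fits that left out 1 library.

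**Figure D3:**
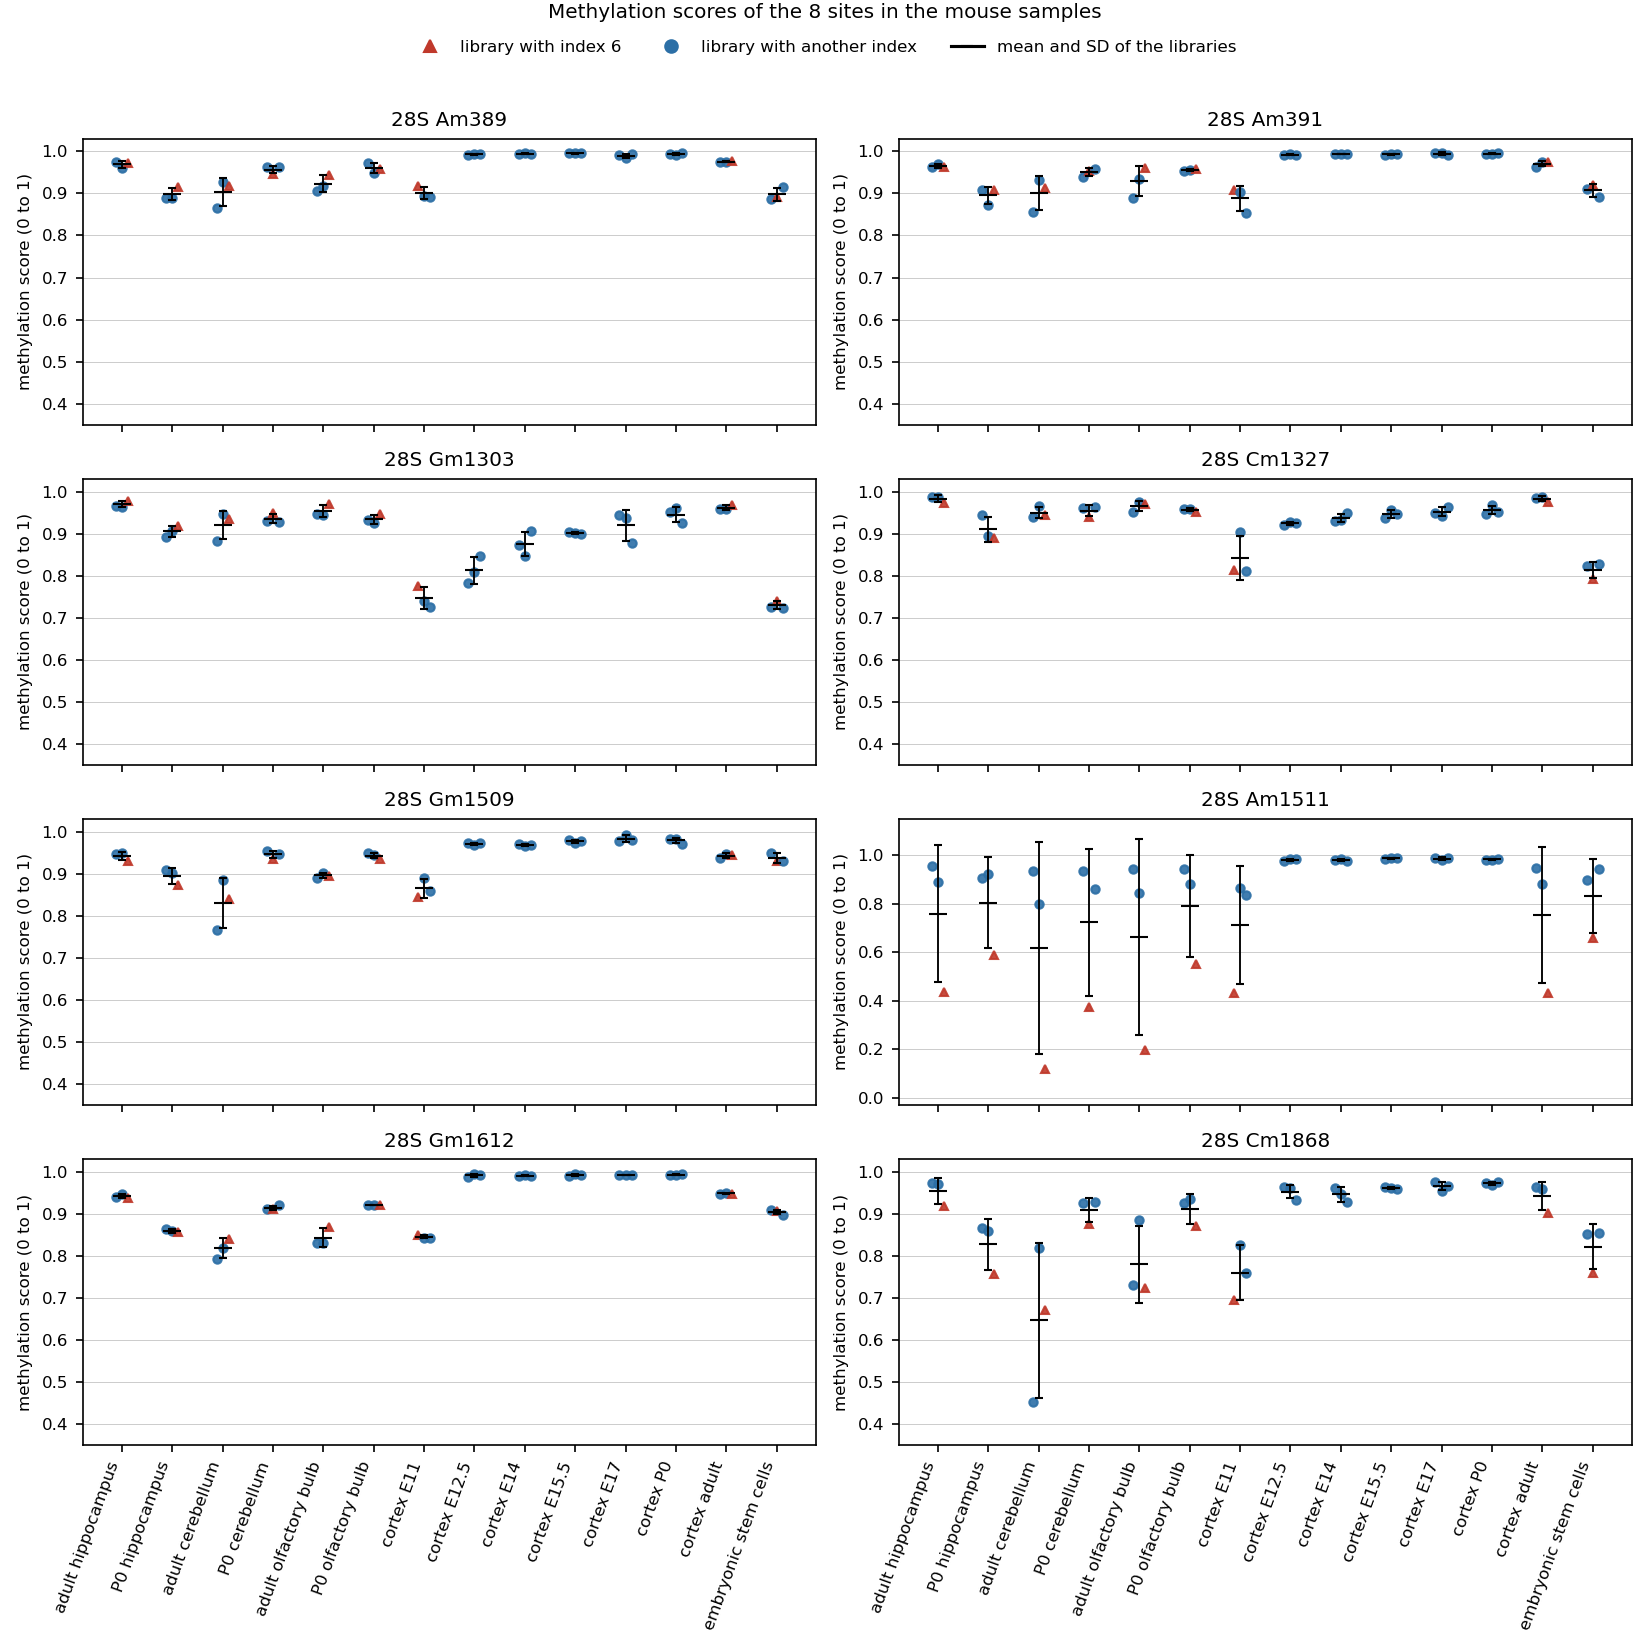
Scores of the 8 sites in the mouse samples, 1 panel per site. Each point is a library (triangles, index 6), bars are mean and SD, and the axis runs from 0.35 except for Am1511, where it starts at 0; Gm1303 climbs over the cortex stages to 0.961 in the adult, and the triangles of Am1511 lie below the other libraries.

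Adult and P0 tissue were compared in 4 regions. Over the regions as replicates no member was called in adult minus P0, where 3.81% of the 105 sites were (4 sites by limma, with 10 sites under an unadjusted p of 0.05). No member was called by edgeR either. The differences ran from -0.128 ± 0.0657 at Am1511 (SE, adjusted p = 0.484) to 0.0258 ± 0.0208 at Cm1327 (adjusted p = 0.81). The regions differed in the sign of the difference. The adult mean lay above the P0 mean in hippocampus at 7 sites, by 0.0473 (Gm1509) to 0.127 (Cm1868), while in cerebellum it lay below at all 8 sites. The general level moved likewise, from 0.905 (P0) to 0.965 (adult) in hippocampus and from 0.952 to 0.884 in cerebellum. The share of all sites that moved in each direction is not given, so these counts are not results about the members.

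Cm1868 showed the widest contrast between regions. Adult hippocampus libraries read 0.973, 0.97 and 0.919 and P0 hippocampus libraries 0.866, 0.859 and 0.756. Adult cerebellum libraries read 0.451, 0.818 and 0.672 and P0 cerebellum libraries 0.925, 0.875 and 0.927. In olfactory bulb the adult libraries read 0.729, 0.886 and 0.724 and the P0 libraries 0.925, 0.936 and 0.87. Adult and P0 libraries did not overlap in hippocampus, where the adult libraries lay above, or in cerebellum, where they lay below.

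Gm1612, which had the smallest spread within samples in mouse, gave the strongest test of the age difference by region. Adult hippocampus averaged 0.942 ± 0.00446 and P0 hippocampus 0.859 ± 0.00415, whereas adult cerebellum averaged 0.818 ± 0.0238 and P0 cerebellum 0.914 ± 0.00532, and adult olfactory bulb 0.843 ± 0.022 and P0 olfactory bulb 0.921 ± 0.000994 (SD, n = 3 libraries each). Its libraries of the 2 ages did not overlap in any of the 3 regions. The age by region term was called at 7 of the 8 sites (limma F test over 18 libraries), beside 67.6% of all 105 sites. Cortex was left out because its P0 libraries had other indexes. Each region at each age is 1 sample. The p-values here and in the tests of adult and of P0 regions below therefore measure the spread between libraries. Adjusted p was 0.00014 at Gm1612, 0.00086 at Am389, 0.00316 at Gm1509, 0.00528 at Cm1327, 0.00567 at Am391, 0.00998 at Cm1868 and 0.0168 at Gm1303, and 0.967 at Am1511. P0 hippocampus and adult cerebellum also had lower general levels than the other regions of their age, and the part of the general level in these results was not tested beyond the division by the upper quartile. After division by the upper quartile Am389, Gm1509, Gm1612 and Cm1868 were called (adjusted p = 0.0269, 0.0213, 0.002 and 0.0321, beside 30.5% of all sites), and without index 6 Am389 and Gm1612 were the called members (0.0245 and 0.00885, beside 33.3%).

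Among the 4 adult regions, which carry 1 library number, 5 of the 8 sites differed (limma F test), beside 47.6% of all sites: Am389, Cm1327, Gm1509, Gm1612 and Cm1868. Cortex averaged 0.948 at Gm1612, hippocampus 0.942, olfactory bulb 0.843 and cerebellum 0.818 (adjusted p = 0.00519). Gm1509 followed the same order with 0.943, 0.942, 0.896 and 0.83 (adjusted p = 0.0226), and Am389 with 0.976, 0.969, 0.923 and 0.904 (adjusted p = 0.0197). Cortex and hippocampus were thus high and cerebellum lowest at these 3 sites. The calls at Am389, Cm1327, Gm1509 and Cm1868 were lost without either of the first 2 adult cortex libraries or either of the first 2 adult hippocampus libraries (adjusted p = 0.0516 to 0.0654), that at Cm1327 also without adult cerebellum library 3 (0.0526). Am391 was called without olfactory bulb library 1 or 3 or the first or second cerebellum library (0.0226 to 0.0499), and Gm1303 without the second cerebellum library (0.0253). Without index 6 no site of the 105 was called (0%), although 31 had an unadjusted p under 0.05, and after division by the upper quartile Gm1612 was the 1 member called (11.4% of all sites). With the index as a block 7 members were called, all but Am1511 (64.8% of all sites).

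At P0, 4 of the 8 sites differed between hippocampus, cerebellum and olfactory bulb (limma F test), beside 35.2% of all sites. Hippocampus was the low region at Am389 (0.898, against 0.957 in cerebellum and 0.96 in olfactory bulb), Am391 (0.896, 0.95 and 0.955), Gm1509 (0.895, 0.946 and 0.942) and Gm1612 (0.859, 0.914 and 0.921). Adjusted p was 0.00557, 0.00904, 0.0155 and 0.00679 at these 4 sites, in that order. After division by the upper quartile none of the 8 was called (19% of all sites), and with the index as a block 7 were, all but Am1511 (71.4% of all sites). Without index 6 the same 4 sites were called and Cm1868 too (adjusted p = 0.0183, beside 40% of all sites). Cm1327 (adjusted p = 0.0504) was called without the second P0 cerebellum library (0.0438) or the first P0 hippocampus library (0.00744).

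E11 cortex, the earliest tissue, was set against mouse embryonic stem cells. Gm1509 was lower in E11 cortex, with libraries of 0.845, 0.89 and 0.86, than in stem cells, with 0.95, 0.931 and 0.93 (difference -0.0717 ± 0.014 SE, limma, adjusted p = 0.0164). Gm1612 was lower as well, with 0.85, 0.843 and 0.843 in E11 cortex, against 0.908, 0.907 and 0.897 in stem cells (-0.0586 ± 0.01, adjusted p = 0.00969). The 2 sites were the called members, beside 23.8% of all sites called and 22.9% called lower, and their libraries did not overlap. Gm1303, which was low in both, averaged 0.746 in E11 cortex and 0.73 in stem cells (adjusted p = 0.649). The 2 samples carry different library numbers, which cannot be told apart from the cell source. Each is 1 sample, so these p-values measure the spread between libraries. Without the first or second stem cell library neither site was called (adjusted p = 0.0566 to 0.0838), nor were they without index 6 (0.0714 at Gm1509 and 0.0506 at Gm1612, beside 10.5% of all sites) or after division by the upper quartile (0.125 and 0.184), where Am389 was called instead, at 0.0426 (0.0476, beside 24.8% of all sites). The median difference was -0.0387 over the 8 members and -0.038 over all sites.

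Directed differentiation of H9, HUES4 and KOLF2 cells into endoderm and mesoderm asked whether methylation changes on leaving pluripotency. Gm1612 was lower in both germ layers and Gm1509 in endoderm. For Gm1612 the line means in endoderm were 0.855 (H9), 0.847 (HUES4) and 0.888 (KOLF2), in mesoderm 0.817, 0.903 and 0.907, and in the undifferentiated cells 0.953, 0.961 and 0.978. Every differentiated sample lay below every undifferentiated one. Endoderm minus pluripotent was -0.1 ± 0.0179 (SE, limma over 9 sample means with line as block, adjusted p = 0.00217) and mesoderm minus pluripotent was -0.0883 ± 0.0179 (adjusted p = 0.00448). After division by the upper quartile the differences were -0.0789 (adjusted p = 0.0113, beside 40.4% of all sites) and -0.0649 (0.0252, beside 34.6%).

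Gm1509 had line means of 0.862 (H9), 0.878 (HUES4) and 0.896 (KOLF2) in endoderm, 0.927, 0.921 and 0.929 in mesoderm, and 0.945, 0.945 and 0.962 in undifferentiated cells. The 3 groups did not overlap and endoderm was the lowest. Endoderm minus pluripotent was -0.0717 ± 0.00923 (SE, limma, adjusted p = 0.000764), and -0.0489 after division by the upper quartile (0.0113). Mesoderm minus pluripotent was -0.0249 ± 0.00923 (adjusted p = 0.0519), and mesoderm minus endoderm was 0.0468 ± 0.00923 (adjusted p = 0.0382, higher in mesoderm in 3 of 3 lines).

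In endoderm these 2 sites were the called members, beside 47.1% of all 104 human sites called and 43.3% called lower. In mesoderm 3 members were called, beside 51.9% of sites called and 48.1% called lower: Gm1612 and the first pair, Am389 at -0.0236 ± 0.00626 (SE, limma, adjusted p = 0.0131) and Am391 at -0.0269 ± 0.00683 (0.0112). After division by the upper quartile the signs of that pair turned, to 0.00414 at Am389 and 0.000564 at Am391, and neither was called. They also lost the call without HUES4 (adjusted p = 0.0684 and 0.0838) or without KOLF2 (0.0852 and 0.105). Gm1509 was the 1 member called between mesoderm and endoderm, beside 2.88% of all sites, and it lost that call without H9 (adjusted p = 0.0561), HUES4 (0.499) or KOLF2 (0.634), after division by the upper quartile (0.0631, beside 0.962% of all sites) and without index 6 (0.0838, beside 1.92%). Of the other lists, 26 of 55 other 28S and 17 of 39 18S sites were lower in endoderm, and 31 and 16 were lower in mesoderm. The median difference over the members was -0.0464 in endoderm and -0.0294 in mesoderm, against -0.0305 and -0.033 over all sites. The germ layer samples and the undifferentiated cells carry different library numbers, which cannot be told apart from differentiation here.

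Gm1303 was the lowest member in endoderm, with line means of 0.527 (H9), 0.539 (HUES4) and 0.57 (KOLF2), against 0.728, 0.618 and 0.649 in the undifferentiated cells. The endoderm mean lay below the undifferentiated one in all 3 lines and the groups did not overlap, but the difference of -0.12 ± 0.0485 was not called (SE, limma, adjusted p = 0.0737). Without index 6 it was -0.142 (adjusted p = 0.0271, beside 51.9% of all sites). From 5′ ends alone the sign turned, to 0.00498 (limma, adjusted p = 0.893). Within H9 and the same index set, endoderm minus undifferentiated was -0.201 (limma over libraries, adjusted p = 0.0198, beside 26.9% of all sites) and mesoderm minus undifferentiated -0.177 (0.0363, beside 27.9%). When these H9 fits had the index as a block both were called (0.0193, beside 49% of all sites, and 0.0235, beside 39.4%), and Am1511 was called higher in endoderm (0.0706, 0.0411). The p-values of these H9 fits measure the spread between libraries. In mesoderm the 3 lines differed at Gm1303, with 0.551 in H9 and 0.678 and 0.672 in HUES4 and KOLF2, and the difference over lines was -0.0318 ± 0.0485 (adjusted p = 0.566). From 5′ ends alone Gm1303 differed by 0.0254 in mesoderm (limma, adjusted p = 0.426). Cm1327, its neighbour, differed by -0.00157 ± 0.01 in endoderm (adjusted p = 0.897) and -0.0176 ± 0.01 in mesoderm (0.164).

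Am1511 and Cm1868 averaged 0.55 and 0.578 in H9 mesoderm, the lowest human means of both. The index 6 library of that sample was listed at 0 for Am1511, beside 0.888 and 0.762 for the other 2, and at 0.397 for Cm1868, beside 0.684 and 0.652. Without H9, Am1511 was called lower in endoderm (-0.139, limma, adjusted p = 5.78e-06) and in mesoderm (-0.0537, 0.00284), and mesoderm minus endoderm changed its sign to 0.0848 (0.0011). The HUES4 and KOLF2 germ layer samples hold index 6 and the undifferentiated cells of those lines do not. Also without H9, Am389 and Am391 were called lower in endoderm (adjusted p = 0.0244 and 0.0115) and Gm1509 in mesoderm (0.0242).

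**Figure D4:**
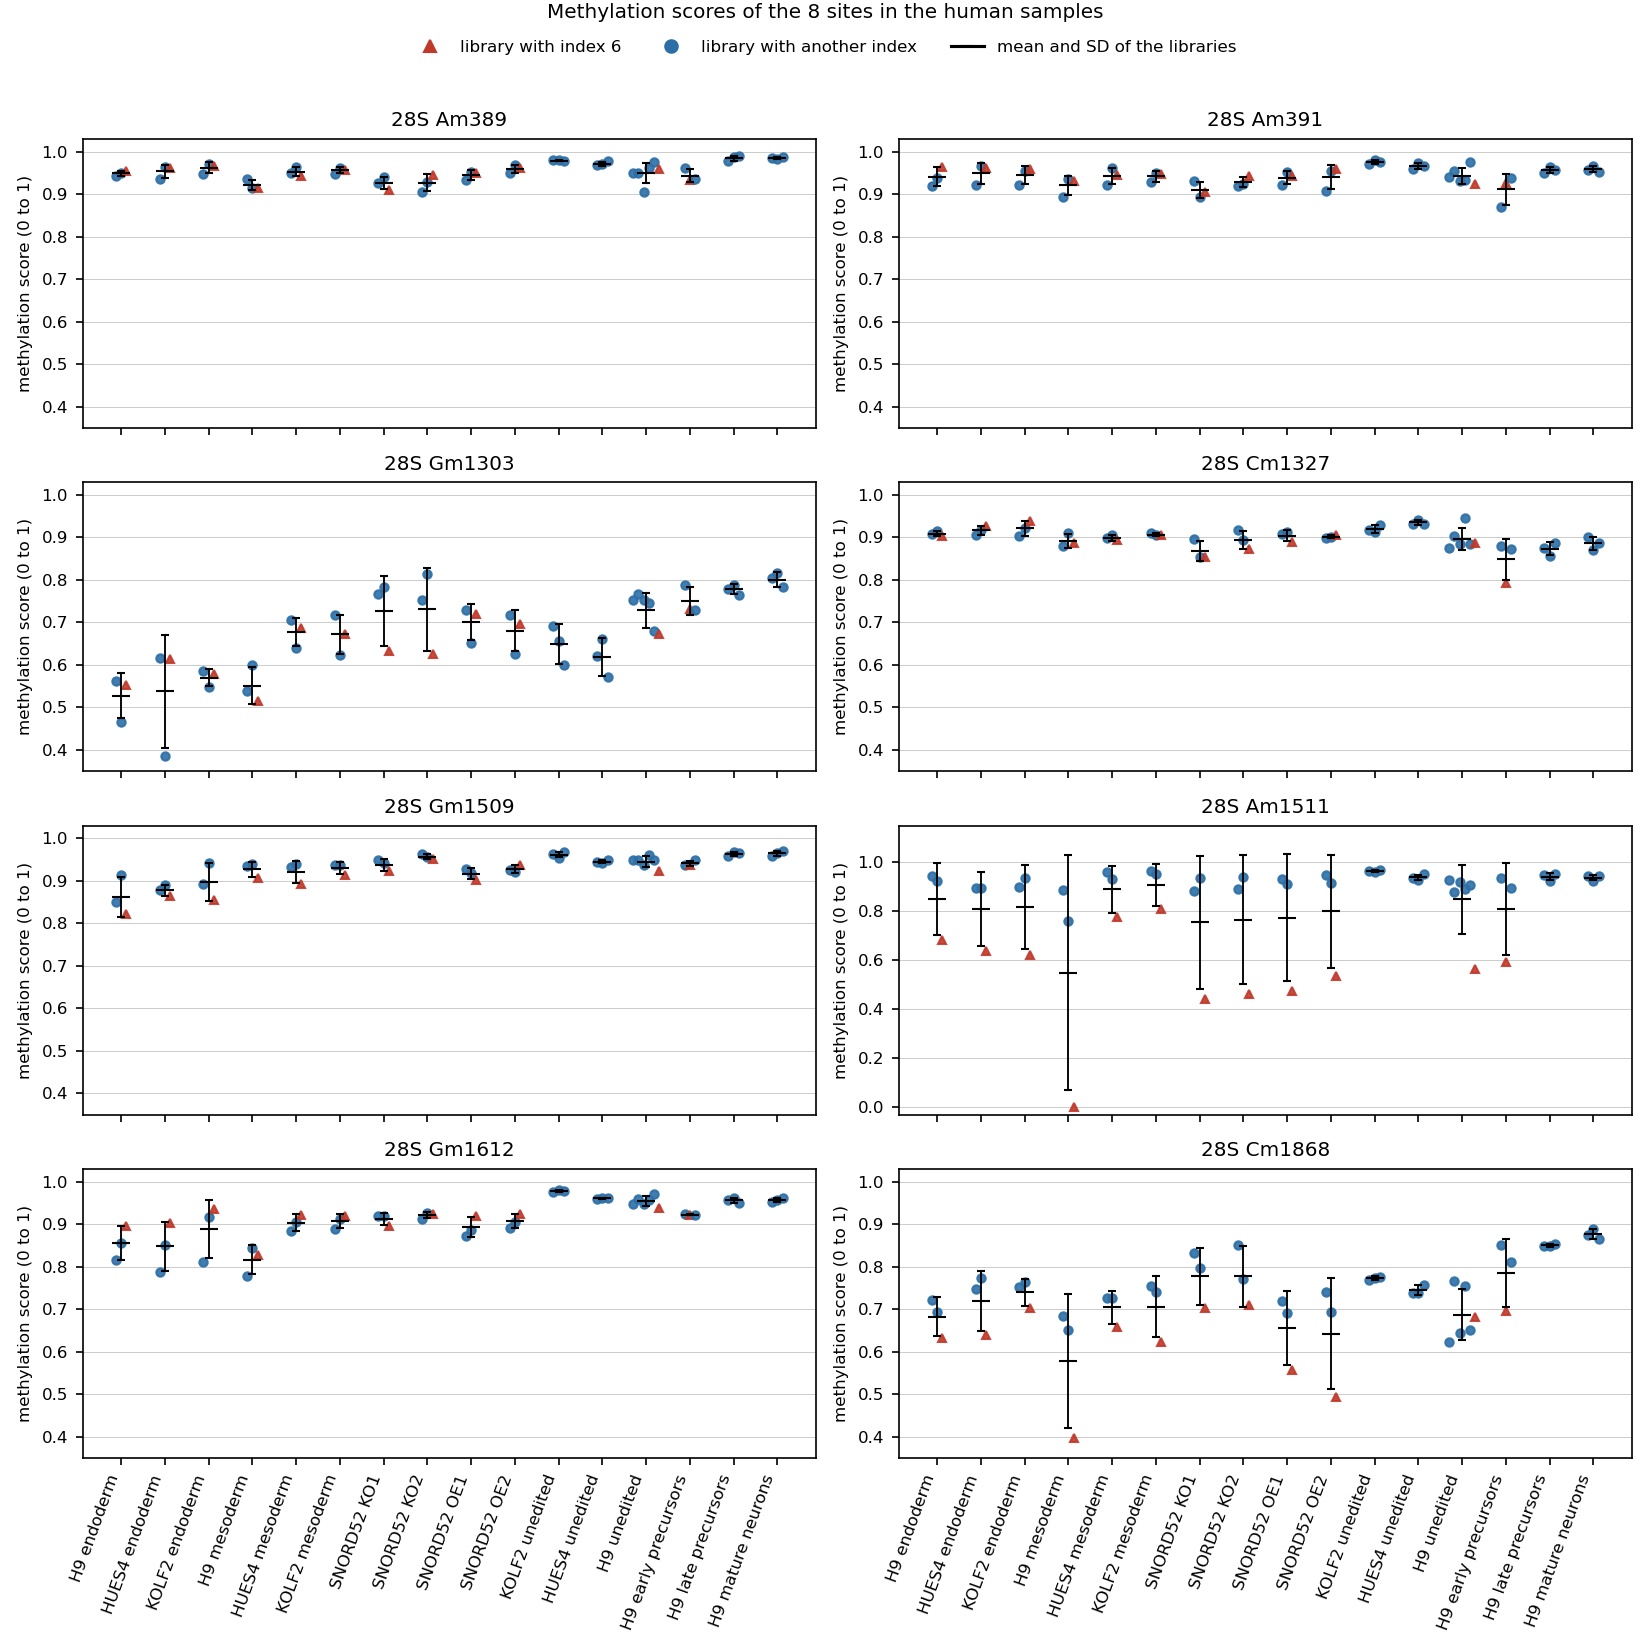
Scores of the 8 sites in the human samples, 1 panel per site. Each point is a library (triangles, index 6), bars are mean and SD, and the axis runs from 0.35 except for Am1511, where it starts at 0; Gm1303 is lowest in H9 endoderm at 0.527 and Cm1868 highest in mature neurons at 0.876.

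The neural series followed H9 cells through 3 steps, with 1 sample per step, so its p-values measure the spread between libraries. The means of Cm1868 were ordered along the series, with 0.687 in H9, 0.786 at the early step, 0.85 at the late step and 0.876 after maturation. Its libraries in H9 ran from 0.623 through a median of 0.666 to 0.767, those of early precursors read 0.851, 0.697 and 0.81, those of late precursors 0.849, 0.848 and 0.853, and those of mature neurons 0.874, 0.889 and 0.866. All libraries of late precursors and mature neurons lay above all H9 libraries, while early precursors and H9 overlapped. Mature neurons minus H9 was 0.19 ± 0.0351 (SE, limma, adjusted p = 0.000455), and 0.237 against the 3 H9 libraries of the same index set (adjusted p = 4.88e-05, beside 38.5% of all sites). From 5′ ends alone it was 0.152 and from 3′ ends alone 0.197, both called.

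Gm1303 averaged 0.801 in mature neurons, with libraries of 0.804, 0.817 and 0.782, and 0.728 in H9, with libraries from 0.673 to 0.766 (difference 0.0725 ± 0.0238 SE, limma, adjusted p = 0.0226). The mature neuron libraries all lay above the H9 libraries. Am389 was higher too, by 0.0342 ± 0.0114 (adjusted p = 0.0236), with 0.984, 0.982 and 0.988 in mature neurons and 0.906 to 0.976 in H9. These 3 sites were the called members of 8, beside 42.3% of all sites called and 34.6% called higher. Am389 lost its call without any 1 mature neuron library (adjusted p = 0.0595 to 0.0871) and after division by the upper quartile (0.0525, beside 46.2% of all sites), and Gm1303 without the first or second mature neuron library (0.0646 and 0.0887). Gm1509 was called without the fourth H9 library (0.0264). Against the 3 H9 libraries of the same index set Gm1303 was called (0.0723, adjusted p = 0.05) and Am389 was not (0.0404, 0.0912), and with the index as a block in that fit Gm1303 was not called either (0.0642, beside 38.5% of all sites). In the other lists 15 of 55 other 28S and 17 of 39 18S sites were higher in mature neurons, and 6 and 2 lower. The median difference was 0.0269 over the members and 0.0172 over all sites.

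Early precursors were lower than H9 at Gm1612 and higher at Cm1868, in a fit where 32.7% of all sites were called (11.5% lower and 21.2% higher). Gm1612 read 0.924, 0.922 and 0.921 in early precursors and 0.937 to 0.971 in H9, with no overlap (difference -0.0308 ± 0.00751 SE, limma, adjusted p = 0.00458). Cm1868 differed by 0.0992 ± 0.0351 (adjusted p = 0.0403). Against the 3 H9 libraries of the same index set neither was called (adjusted p = 0.178 and 0.499, beside 19.2% of all sites), and with the index as a block 4 were, beside 42.3% of all sites: Cm1327 at -0.0634 (0.00262), Gm1612 at -0.0287 (0.0134), Cm1868 at 0.052 (0.031) and Am1511, whose sign turned, at 0.0305 (0.031). Cm1868 lost its call in 12 of the fits that left out 1 library: without H9 library 1, 3, 5 or 6, early precursor library 1 or 3, or any 1 of the late precursor or mature neuron libraries (adjusted p = 0.0505 to 0.238). With the index as a block in the fit of the same index set, Cm1327 (0.000174) and Gm1612 (0.0242) were called, beside 33.7% of all sites. Cm1327 gained a call without early precursor library 1 (0.0421) and Am391 without library 3 (0.0362). Early precursors and H9 carry different library numbers, which cannot be told apart from neural induction here.

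Late precursors were higher than early precursors at Gm1612, with 0.957, 0.961 and 0.95 against 0.924, 0.922 and 0.921 (0.0338 ± 0.00867 SE, limma, adjusted p = 0.0142), and at Am389, with 0.978, 0.986 and 0.989 against 0.961, 0.933 and 0.937 (0.0407 ± 0.0132, adjusted p = 0.0471). The libraries did not overlap at either site. These were the called members, beside 17.3% of all sites called and 13.5% called higher. With the index as a block, Gm1612 lost its call (adjusted p = 0.105) and Cm1868 gained one (0.158, adjusted p = 0.0017), beside 13.5% of all sites. Gm1612 lost its call without the second late precursor library (0.0683), and Am389 in 11 fits that left out 1 library of any of the 4 samples (0.0524 to 0.152). Am391 gained a call without early precursor library 3 (0.0342) and Gm1509 without the sixth H9 library (0.0379). The 2 samples had different library numbers and index sets.

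Mature neurons and late precursors shared a library number and an index set, and no site of the 104 was called between them (0%, limma), with 1 site under an unadjusted p of 0.05. edgeR called none of the members. The largest member difference was 0.0262 ± 0.0406 at Cm1868 (SE, adjusted p = 0.99).

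SNORD52 guides 28S Um3904, which lies outside the 8 sites, and was checked first. Um3904 scored 0.0302 in KO1 and 0.0158 in KO2, 0.893 in OE1 and 0.895 in OE2, and 0.825, 0.598 and 0.721 in unedited H9, HUES4 and KOLF2. KO minus unedited was -0.692 ± 0.0715 (SE, limma over 7 sample means, adjusted p = 5.85e-06) and OE minus unedited 0.179 ± 0.0715 (adjusted p = 0.0493). The unedited H9 libraries ran from 0.579 to 0.977, a range that held all OE libraries (0.846 to 0.925). HUES4 and KOLF2 are other lines with other indexes than OE, so a rise in OE is not shown against its own line. None of the 8 sites is a target of SNORD52 in the published tables.

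Am389, Am391, Am1511 and Gm1612 were called lower in KO than in unedited cells, beside 35.6% of all sites called and 17.3% called lower. Gm1612 averaged 0.912 in KO1 and 0.921 in KO2, against 0.953, 0.961 and 0.978 in H9, HUES4 and KOLF2 (-0.0476 ± 0.0119 SE, limma, adjusted p = 0.00719). Am389 averaged 0.925 and 0.926 in KO1 and KO2, against 0.95, 0.972 and 0.979 (-0.041 ± 0.00983, adjusted p = 0.00563), and Am391 averaged 0.91 and 0.928, against 0.943, 0.967 and 0.976 (-0.0429 ± 0.0113, 0.00918). Both KO samples lay below all unedited lines at these 3 sites. They also lay below them at Am1511 and at Cm1327, which was not called, and above them at Cm1868, which was not called either. The share of all sites without overlap is not given. Within H9 and the same index set, Gm1612 (-0.0347, adjusted p = 0.0274) and Am389 (-0.0306, 0.0477) were called, beside 31.7% of all sites, and Am391 (-0.0182, 0.312) and Am1511 were not. A block on the index in that fit left the same 2 sites called (0.00587 and 0.0128, beside 47.1% of all sites). Units in both of these fits were libraries, with no term for the clone. Their p-values measure the spread between libraries and not that between clones.

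Am1511 averaged 0.754 and 0.765 in KO1 and KO2 and 0.848, 0.939 and 0.965 in H9, HUES4 and KOLF2 (-0.158 ± 0.0284 SE, limma, adjusted p = 0.000611). The KO libraries with index 6 read 0.442 and 0.463 and the other 4 KO libraries 0.885 to 0.942, while unedited HUES4 and KOLF2 hold no index 6. Without index 6 the difference was -0.023 (adjusted p = 0.25, beside 30.8% of all sites called), and within H9 and the same index set -0.019 (0.931). Without the KO1 sample, Am391 (0.144) and Gm1612 (0.111) lost their calls. Without H9, Gm1303 was called higher in KO (0.0951, adjusted p = 0.0214) and Cm1327 lower (-0.0464, 0.0131). The median difference was -0.0385 over the members and -0.00153 over all sites, and 10 of 55 other 28S and 4 of 39 18S sites were called lower, 7 and 10 higher.

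In OE, Gm1509, Am1511 and Gm1612 were called lower than in unedited cells, beside 48.1% of all sites called and 45.2% called lower. Gm1612 averaged 0.892 and 0.907 in OE1 and OE2, below the 0.953, 0.961 and 0.978 of the unedited lines (-0.0644 ± 0.0119 SE, limma, adjusted p = 0.000337). Gm1509 averaged 0.916 and 0.927 in OE1 and OE2, against 0.945, 0.945 and 0.962 (-0.0286 ± 0.0107, adjusted p = 0.0365), and Am1511 averaged 0.773 and 0.8, against 0.848, 0.939 and 0.965 (-0.131 ± 0.0284, 0.00111). Within H9 and the same index set Gm1612 was the 1 member called (-0.0516, adjusted p = 0.0246, beside 21.2% of all sites), and Am1511 turned to 0.00796 (0.95). A block on the index in that fit gave calls at Gm1612 (0.00598) and Cm1868 (-0.0845, 0.0276), beside 51% of all sites. Libraries were the units in both fits, as for KO, so their p-values measure the spread between libraries and not that between clones. After division by the upper quartile over all lines Gm1612 (-0.0396, 0.00507) and Am1511 (-0.111, 0.0118) were still called and Gm1509 was not (-0.00202, 0.867), beside 43.3% of all sites. Gm1509 also lost its call without KOLF2 (0.0828), KO1 (0.0594), KO2 (0.0674), OE1 (0.314) or OE2 (0.0922). Without H9, Am389, Am391 and Cm1868 were called lower in OE as well (0.0242, 0.0109 and 0.0031). The median difference was -0.0256 over the members and -0.0275 over all sites, and 26 of 55 other 28S and 18 of 39 18S sites were called lower.

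KO and OE samples, which share all 3 indexes, differed at 1 member, beside 49% of all sites called and 43.3% called higher. Cm1868, whose guide SNORD48 shares its host gene with SNORD52, averaged 0.778 and 0.777 in KO1 and KO2 and 0.656 and 0.642 in OE1 and OE2 (0.128 ± 0.0397 SE, limma, adjusted p = 0.0144). The KO libraries read 0.833, 0.797 and 0.703 in KO1 and 0.852, 0.771 and 0.71 in KO2, and the OE libraries 0.719, 0.692 and 0.557 in OE1 and 0.74, 0.694 and 0.493 in OE2, so that sample means did not overlap. Libraries overlapped across indexes, while within each of the 3 indexes both KO libraries lay above both OE libraries. Over libraries with the index as a block and the sample as a random effect (consensus correlation -0.127), Cm1868 was called at 0.128 (adjusted p = 1.62e-05), as were Am389 (-0.0264, 0.00465), Am391 (-0.0204, 0.0288) and Gm1509 (0.0254, 0.00562), beside 70.2% of all sites. With 2 clones per genotype and a negative consensus correlation, these p-values measure the spread between libraries and not that between clones. At Cm1868 the unedited lines lay between KO and OE, at 0.687 (H9), 0.745 (HUES4) and 0.773 (KOLF2). From 3′ ends alone the difference was 0.234 (adjusted p = 0.0021), and from 5′ ends alone it was 0.00615 (0.901). Leaving out any 1 of the 4 edited samples ended the call (adjusted p = 0.0639 to 0.0993), and leaving out H9, HUES4 or KOLF2 added a call at Am389 (0.0136 to 0.0453). After division by the upper quartile Cm1868 was called (0.118, 0.0318, beside 46.2% of all sites) and so were Am389 (-0.0502, 0.000731), Am391 (-0.0436, 0.00665) and Cm1327 (-0.0443, 0.0473), which lay lower in KO than in OE. KO and OE carry different library numbers, which cannot be told apart from the genotype. KO minus unedited was 0.0427 ± 0.0362 at Cm1868 (adjusted p = 0.381) and OE minus unedited -0.0855 ± 0.0362 (0.0631). These comparisons share samples. Of the other lists, 21 of 55 other 28S and 23 of 39 18S sites were called higher in KO than in OE, and 5 and 1 lower.

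Within unedited H9, the 3 libraries of indexes 1 to 3 and the 3 of indexes 4 to 6 gave no called site (0% of 104, limma, with 8 under an unadjusted p of 0.05). At the members the first set minus the second ran from -0.0942 ± 0.0281 at Cm1868 (SE, adjusted p = 0.303) to 0.139 ± 0.0807 at Am1511 (0.809).

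**Figure D5:**
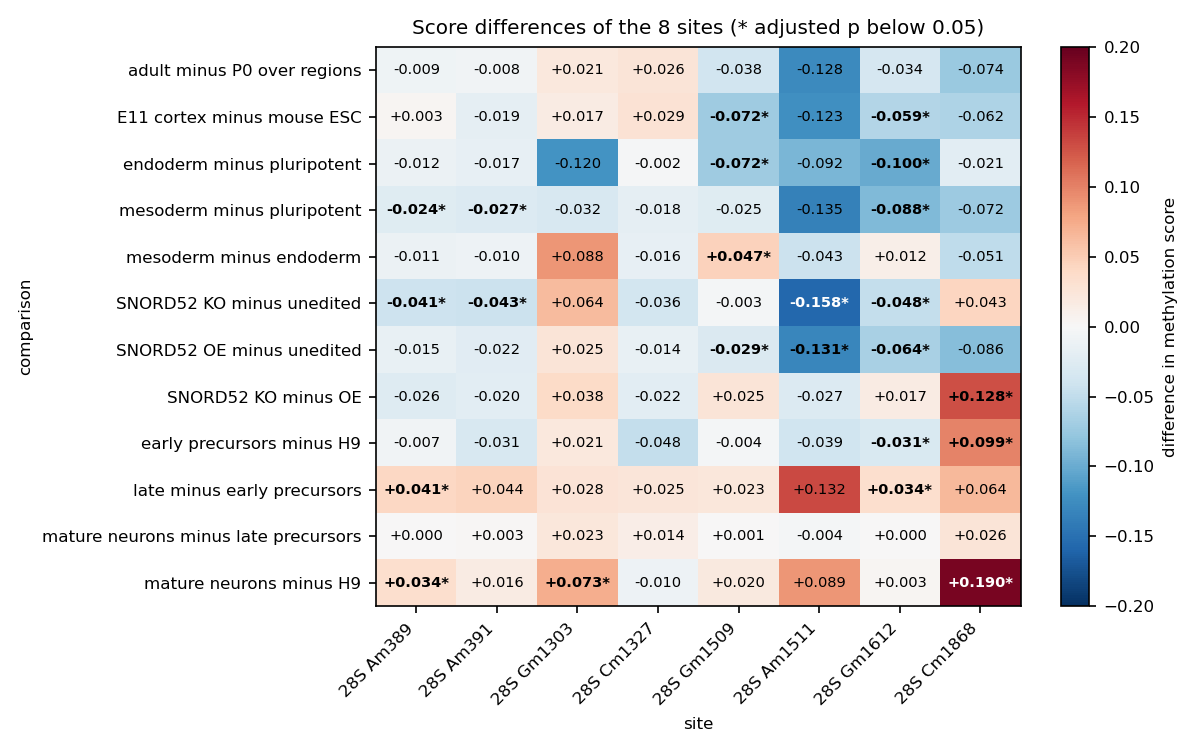
Differences in score for the 8 sites (columns) in 12 comparisons (rows), coloured from lower (blue) to higher (red), with a star where the adjusted p is under 0.05. Mature neurons minus H9 at Cm1868 (0.19) is the most positive value, Gm1612 is called in 7 of the 12 rows and Cm1327 in none.

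The scores of the close pairs were compared over sample means with all indexes. Am389 and Am391 had nearly the same profile over samples, with Spearman correlations, after subtracting each sample's median score, of 0.938 over 16 human and 0.903 over 14 mouse samples, and each was the catalogue site most like the other. Gm1509 and Am1511 correlated at -0.0441 in human and 0.749 in mouse. Gm1303 and Cm1327 correlated at 0.947 in mouse and at -0.779 in human. These points share libraries, indexes and neighbouring read ends, and carry no test. By the mean of both species, the catalogue site most like Gm1303 was 5.8S Um14 (0.792), that most like Cm1327 was 28S Um4590 (0.891), and that most like Gm1509 was 28S Am3764 (0.632). Am1511 was most like 28S Am3697 (0.822), Gm1612 was most like Am1511 (0.808) and Cm1868 was most like 28S Gm4020 (0.742). Likenesses that involve Am1511 or Cm1868 include the tie of these sites to index 6.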

How the data were processed

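RiboMeth-seq read ends were analysed at the 8 sites and at all 106 catalogue sites. The deposited tables, 1 per sample, hold raw counts of 5′ and 3′ read ends per rRNA position for each library, per the file headers. They also hold the authors' score, a fraction from 0 to 1 although the column is named Meth%. Libraries were made in triplicate from partly alkali-degraded total RNA and sequenced on the Ion Proton platform, per the labels' protocols. For the aligner, the counting program and the reference build, nothing is given in the sources used here. The score was recomputed from the counts as 1 minus the counts at a site over the weighted mean of 6 neighbours on each side, with weights falling from 1 to 0.5 and negative values set to 0. Over 9672 values it matched the deposited fraction to within 4.99933e-13.

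Site names and snoRNA assignments came from general knowledge of published tables. Published numbers were placed on the 28S sequence of the files by base and order, with shifts of 9 (2 sites), 12 (21), 13 (3), 21 (17), 22 (2) and 30 (18). Sites with a mean score of at least 0.2 and at least 50 neighbour reads were tested, 104 in human and 105 in mouse. The 16 comparisons were fitted with limma 3.58.1 in R 4.3.3 (Python 3.11.15, numpy 2.4.6, pandas 2.3.3 and Biopython 1.88 elsewhere) on the score, with Benjamini-Hochberg adjustment over all tested sites and a threshold of 0.05, "called" meaning below it. The fits of slopes and differences, but not the F tests, were run on simulated data with independent noise between units. That setting leaves out the shared deviation of libraries with the same index. Units were libraries, or sample means where lines, regions or clones are replicates. The study's design text names biological triplicates, and where nothing else separates libraries of 1 sample, p-values measure the spread between libraries only.

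Libraries of different samples that carry the same index, named in the file headers, deviated together (correlation of deviations over 0.1 in 122 of 122 pairs, lowest 0.248, medians 0.55 in human and 0.657 in mouse), so the index was used as a block in an alternative fit. Other alternatives were division by the upper quartile of the library, 2 neighbours, methylated neighbours left out, 5′ or 3′ ends alone, the arcsine scale, no minimum, edgeR 4.0.16 on the counts with the neighbour mean as offset, and leaving out each unit in turn. Fits without index 6, without the E11 sample, adult minus E11 alone, the same index set with scaled scores or with the index as a block, KO minus OE over libraries with the index as a block (limma's duplicateCorrelation for samples), levels without index 6 or from 5′ ends, and crossed clone numbers were chosen after seeing the data. The members and lists were chosen with earlier results of these data known. All 8 members are named, with the catalogue site most like each by the mean Spearman correlation of both species after subtracting sample medians. Other sites are named only within 6 nucleotides of a member or as the target of the edited snoRNA, and all remaining sites appear as counts. Overlap of libraries or samples between groups is described for the members only, without the share over all sites.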

Additional observations from a re-analysis of the deposited data

Results flagged for a closer look

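Within the 6 libraries of undifferentiated H9, 1 library lay far below the others at Am389 (0.906, with the nearest at 0.951; a gap of 0.637 of the whole range, against a critical value of 0.625) and the library with index 6 at Am1511 (0.565, with the nearest at 0.88; a gap of 0.868 of the range). Across the 4 P0 regions, hippocampus stood apart at Cm1327 (0.91, with the nearest at 0.954; a gap of 0.956 of the range, against a critical value of 0.829). In all, 24 groups were examined and 3 were marked in this way, where chance marks about 1 in 20.

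The difference between adult and P0 varied between hippocampus, cerebellum and olfactory bulb at 7 sites (limma F test). Adult minus P0 at Gm1612 was 0.083 for hippocampus, -0.096 for cerebellum and -0.0779 for olfactory bulb (adjusted p = 0.00014). Cm1868 gave 0.127, -0.262 and -0.131 in the same order (0.00998), Gm1509 0.0473, -0.116 and -0.0466 (0.00316), and Am389 0.0715, -0.053 and -0.0365 (0.00086). Am391 gave 0.0691, -0.0495 and -0.0267 (0.00567). In olfactory bulb Gm1303 (0.0639, -0.014 and 0.0193, adjusted p = 0.0168) and Cm1327 (0.0725, -0.00479 and 0.009, 0.00528) had adult means above P0. P0 hippocampus and adult cerebellum had low general levels, and the sites called after division by the upper quartile are given with the comparison of regions.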

How the results depend on the processing

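Of 2184 values of a member under an alternative, 103 gained a call, 156 lost one and 132 changed sign. Of the sign changes 17 were of values called in at least 1 of the fits compared and are given below, and 115 were of values called in neither, at -0.0611 to 0.1. The second kind includes Am1511 in the cortex slope without E11 (-0.0325), in E11 minus stem cells without the first E11 library (0.0179) and in early precursors without the second early library (0.0683), Gm1303 in mesoderm without H9 (0.0409) and Gm1612 in mesoderm minus endoderm without HUES4 (-0.00985). The counts of called members moved by over 1.5 times in 46 of 160 fits that left out 1 unit and in 65 of 183 other fits. The cause was not tested except where units or read ends were removed. Division by the upper quartile left 3 called cortex slopes (6 before), 4 sites by region (7), 1 among adult regions (5), 0 among P0 regions (4), 1 in E11 minus stem cells (2), 1 in mesoderm (3), 0 in mesoderm minus endoderm (1), 1 in late minus early precursors (2) and 4 in KO minus OE (1). From 5′ ends the same comparisons gave 3 slopes, 2 by region, 1 among P0 regions, 4 in E11 minus stem cells, 1 in endoderm (2), 1 in mesoderm, 0 in mesoderm minus endoderm, 6 in early precursors minus H9 (2), 6 in late minus early, 2 in KO minus unedited (4) and 4 in KO minus OE. From 3′ ends 0 were called among adult regions, 1 in E11 minus stem cells, 5 in endoderm, 5 in mesoderm, 0 in mesoderm minus endoderm, 0 in early precursors, 0 in late minus early and 1 in mature neurons minus H9 (3). With 2 neighbours 4 were called in endoderm, 0 in mesoderm minus endoderm and 3 in KO minus OE, and the arcsine scale gave 3 slopes and 0 in mesoderm minus endoderm. edgeR called 5 members in endoderm, 5 in mesoderm, 0 in mesoderm minus endoderm, 1 in early precursors, 4 in late minus early and 1 in OE minus unedited (3). Without index 6 there were 3 slopes, 2 by region, 0 among adult regions, 0 in E11 minus stem cells, 4 in endoderm, 0 in mesoderm minus endoderm, 1 in late minus early and 3 in KO minus OE. Against H9 libraries of the same index set 0 were called in early precursors, 2 in KO and 1 in OE, and with scaled scores too 1 in endoderm, 1 in mesoderm, 0 in early precursors, 1 in mature neurons, 2 in KO and 0 in OE. Some fits are given without a share of all sites, such as 5′ or 3′ ends, 2 neighbours, the arcsine scale and edgeR. Others are cortex slopes and late minus early precursors after division by the upper quartile. Cortex slopes, late minus early precursors and KO minus OE without index 6 also lack it, as does H9 of the same index set with scaled scores. The counts of all these fits cannot be set against all sites and are not results about the members. The same holds below for fits that left out 1 unit, used the clone as a block or dropped the line block.

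Leaving out 1 unit gave 3 to 7 slopes, 0 to 0 over regions, 7 to 7 by region, 1 to 7 among adult and 4 to 5 among P0 regions, and 0 to 2 in E11 minus stem cells. It gave 2 to 5 in endoderm, 1 to 5 in mesoderm, 0 to 1 between them, 1 to 2 in early precursors, 0 to 3 in late minus early, 0 to 0 in mature minus late, 1 to 4 in mature neurons minus H9, 2 to 6 in KO, 2 to 6 in OE and 0 to 2 in KO minus OE.

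With the index as a replicate block 7 members were called among P0 regions and 4 in early precursors. Calls were gained in the cortex slopes, adult regions, P0 regions and early precursors, gained and lost in late minus early precursors, and unchanged in the other 4 comparisons fitted with that block over all their libraries. Without the line as a block mesoderm minus endoderm had 0 called members. Clone numbers gave a correlation of deviations of -0.108, and KO minus OE had 4 called members with the clone as a replicate block and 4 with the numbers crossed. No paired analysis was possible because KO or OE samples and unedited lines share no replicate numbers. Blocks on the index were possible, over libraries with H9 of the same index set, where 4 members were called in endoderm, 1 in mature neurons and 2 in KO as counts that moved, and over KO and OE libraries, where 4 were. These fits were chosen after seeing the data.

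Among values called in either fit, signs turned at Am389 from E12.5 to P0 (-0.000511) and, without E11, at Am389 (-0.00282), Am391 (-0.00295), Gm1509 (-0.00292) and Gm1612 (-0.00593). Am391 turned to 0.021 in E11 minus stem cells from 5′ ends. In mesoderm scaled scores turned Am389 to 0.00414 and Am391 to 0.000564, and the same index set with scaled scores turned Am391 to 0.019. Am1511 in mesoderm minus endoderm ran from -0.11 (without KOLF2) to 0.0848 (without H9). It turned to 0.0305 in early precursors with the index block, to 0.00796 in OE with the same index set, with or without the index block (0.0304 with scaled scores), to 0.0706 in endoderm with the same index set and block and to 0.0183 in KO minus OE from 5′ ends. Gm1509 turned to 0.00195 in OE with the same index set and scaled scores.

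The median counting error of a library's score was at most 0.0114, and differences within the counting error of a site were not detectable at this depth. Other limits are the number of samples, the library number and index that move with the groups, and the general level. The score cannot separate less methylation from other sources of read ends at a site, and RNA of whole regions does not show which cells carry it.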
